A study of Danio rerio with 4 samples.

Results

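SNARE and synaptic vesicle genes encode the proteins that fuse vesicles with their target membranes. They were compared here between cells sorted as endothelial and the other cells of the zebrafish embryo. They were taken as every gene of the expression table whose name begins with a syntaxin (stx), syntaxin-binding (stxbp), snap, vamp, synaptotagmin (syt), synapsin (syn), synaptophysin (syp), complexin (cplx), napa, napb or nsf symbol, followed by a digit where the family is numbered. The rule found 84 genes of 31716, under 79 names. RNA-seq was made from embryos of the Tg(fli1a:egfp) strain at 24 hours post fertilization, in which regulatory sequence of fli1a drives a green fluorescent protein (GFP), in endothelial cells and, as background, in blood and cranial neural crest derivatives too. Dissociated and fixed cells were sorted into a GFP-positive fraction (GFP+; endothelial cells by the labels) and a GFP-negative one (GFP-; non-endothelial cells by the labels), with 2 libraries each. All 4 libraries carry the same transgene, and the labels name no other allele or treatment. The comparison asks which members distinguish the GFP+ fraction, labelled endothelial, from the GFP- fraction.

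SNARE proteins on a vesicle and on its target membrane zip together into a bundle that pulls the membranes into fusion. Neurons use a set of their own for transmitter release: a neuronal syntaxin and Snap25 on the plasma membrane, Vamp2 on the vesicle, synaptotagmin as the calcium sensor and complexin as the clamp. Every cell carries general SNAREs for traffic between the endoplasmic reticulum, Golgi, endosomes and surface, and the ATPase Nsf with alpha-SNAP (Napa) takes spent bundles apart. By these roles 37 members formed a neuronal group and 30 a general fusion group. Not all of the general group are genes of every cell. For vamp5, stx3a, stx11a and stxbp2 a narrower use is named below. A further 11 were the synaptotagmins not placed in the neuronal group, which were syt7, syt8, and syt11 and higher numbers. Another 6 were set apart and are called matches by name only. They were nsfl1c, a cofactor of another ATPase, and the synaptophysin-like sypl genes, although these belong to the synaptophysin family.

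Each gene had 1 value per fraction, the authors' FPKM (fragments scaled by transcript length and library size, a level per length). It was taken as pooled over both libraries of a fraction, which the headers do not state. Single-library values were not analysed here, so levels have no standard deviation and the depth is unknown. Whether the libraries stem from separate clutches is not in the labels, so p-values may reflect technical spread alone. A member was called when its q in the authors' deposited table, adjusted over all 7299 tested genes, was under 0.05. Markers of the labelled cell types were read first. Of 10 endothelial symbols, 9 were in the table and 7 were called higher, with a summed level of 911 FPKM in GFP+ against 22.0 FPKM in GFP- cells. The vascular cadherin gene cdh5 had 87.3 against 0.567 FPKM. All 6 erythroid markers were called higher too, at 71187 against 854 FPKM in sum, and of 7 rows of myeloid markers 2 were called higher, at 216 against 2.29 FPKM in sum, with mpeg1 and both lcp1 rows listed at 0 in GFP- cells. Blood as well as vessel transcripts were thus measured in GFP+ cells.

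Of 29 neuronal fusion genes with a value above 0, 28 had the larger one in the GFP- fraction. Of 28 general fusion genes with a value, 19 had the larger one in the GFP+ fraction. Some of these 19 were nearly equal, such as vamp4 at 9.34 FPKM in GFP+ and 9.30 FPKM in GFP- cells. Over all 20810 genes with a value, 9472 were larger in GFP+ and 11338 in GFP- cells. Of the 84 members, 27 were tested, 4 were called lower in GFP+ cells, 3 were called higher and 20 did not pass. Over all tested genes 14.3% were called, 7.15% lower and 7.18% higher. All 4 genes called lower were of the neuronal group, vamp2 and cplx2l among them. The 3 called higher were vamp5 of the general group and sypl1 and sypl2a of the matches by name. At a q under 0.01, which 8.63% of tested genes passed, 4 members remained, among them vamp2, vamp5 and sypl2a. The other 57 members had too few alignments for a test by the authors' Cuffdiff status. Of all tested genes, 99.99% had at least 5 FPKM in the higher fraction. A member with a low value in one fraction was therefore tested only because it was high in the other, and counts over tested members are a description. Of the members, 15 were listed at 0 in both fractions.

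**Figure D1:**
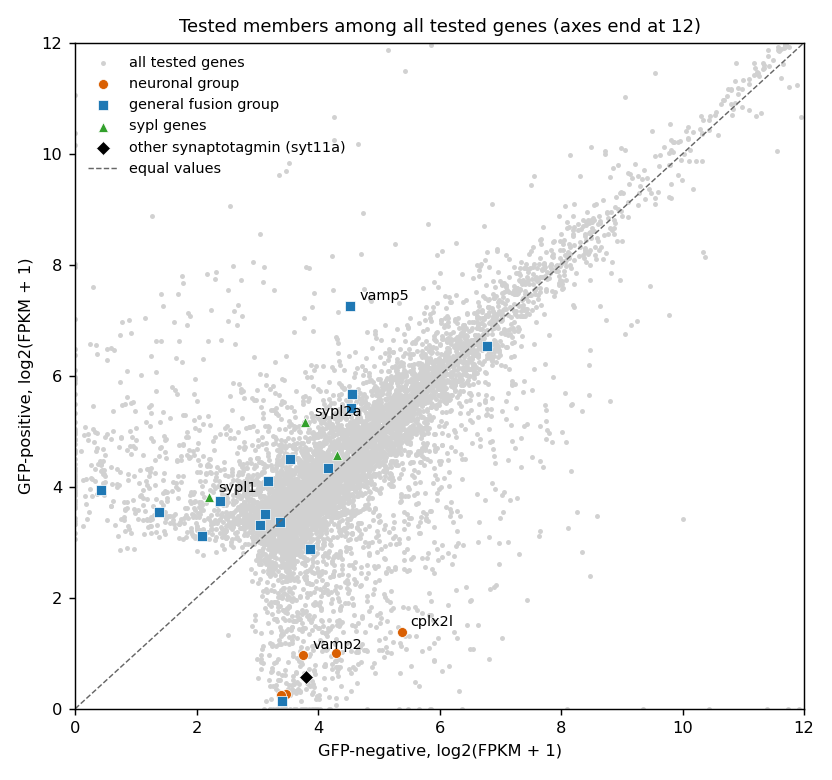
Tested members shown here among all 7299 tested genes, with GFP- level on the horizontal and GFP+ level on the vertical axis, each as log2(FPKM + 1); 29 tested genes lie beyond the axes. The 5 neuronal members shown lie far below the line of equal values, and vamp5 has the highest GFP+ level of the members, 152 against 22.1 FPKM.

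Levels are given below as GFP+ against GFP-, beginning with the neuronal SNAREs. The gene snap25a, whose protein supplies a pair of helices to the bundle, had 0.996 against 18.5 FPKM. This 18.6-fold ratio did not pass (q = 0.212, the authors' deposited table), and snap25a shares its Cuffdiff locus with other genes. The second copy, snap25b, had 0.224 against 1.16 FPKM and was not tested.

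On the vesicle side, vamp2 (ENSDARG00000056877; chromosome 10, 23034622 to 23045695 in the Zv9 build), the synaptic vesicle SNARE, had 0.964 FPKM in GFP+ and 12.5 FPKM in GFP- cells. It was 13.0-fold lower in GFP+ cells (q = 0.00892, the authors' deposited table). Its close relative vamp1 had 0.185 against 9.52 FPKM, a larger ratio of 51.4-fold that did not pass (q = 0.546, the authors' deposited table).

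Among the regulators of the neuronal SNAREs, the complexin gene cplx2l (ENSDARG00000018997; chromosome 1, 11559350 to 11574952), which the reference of gene names calls cplx2a, had 1.61 against 40.5 FPKM. It was 25.1-fold lower in GFP+ cells (q = 0.0141, the authors' deposited table). The related cplx2 had 0.285 against 5.07 FPKM, and cplx4c was listed at 0 in GFP+ cells with 6.24 FPKM in GFP- cells, in a locus shared with other genes. Neither was tested. The copies cplx3a, cplx3b, cplx4a and cplx4b had lower GFP- levels, cplx3b at 0.769 against 2.35 FPKM, cplx3a at 0.365 against 0.488 FPKM in 1 row and at 0 in the other, and cplx4a and cplx4b at 0 in both fractions. The tomosyn gene stxbp5b, an inhibitor of SNARE assembly, was the only neuronal member with a larger value in GFP+ cells, at 1.07 against 0.583 FPKM, and was not tested. Its relatives stxbp5a and stxbp5l had 0.678 against 1.40 FPKM and 0 against 0.379 FPKM.

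Genes of calcium sensors and vesicle proteins stayed at or below 10.8 FPKM in both fractions. The principal sensor gene syt1a had 0.206 against 10.1 FPKM, a 48.8-fold ratio (q = 0.546, the authors' deposited table). Of the other synaptotagmin genes placed in the neuronal group, syt2a had 1.15 against 5.52 FPKM and syt3 had 0.281 against 1.56 FPKM. The gene syt4 was listed at 0 against 2.56 FPKM. The copies syt1b and syt5a were listed at 0 in both fractions, and syt5b, syt6a, syt9a, syt9b and syt10 stayed under 1 FPKM in both, from 0.180 FPKM for syt5b to 0.635 FPKM for syt10 in GFP- cells. The vesicle membrane genes sypa and sypb had 0.285 against 10.8 FPKM and 1.35 against 6.15 FPKM. The synapsin genes syn1 and syn2a, which tether vesicles in reserve, were listed at 0 in GFP+ cells, with 4.76 and 2.01 FPKM in GFP- cells. The clathrin assembly gene snap91 had 0.579 against 6.65 FPKM, and the beta-SNAP gene napba, of a brain form of alpha-SNAP in mammals, had 0.146 against 1.34 FPKM. None of these vesicle protein genes was tested.

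**Figure D2:**
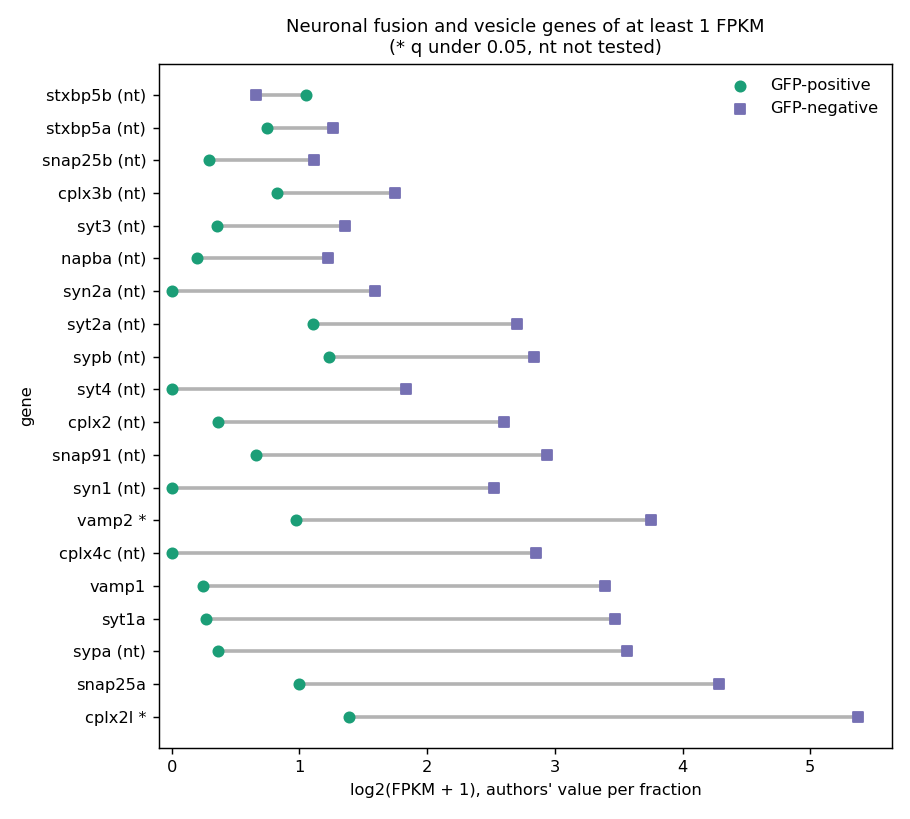
Levels of 20 neuronal members of at least 1 FPKM in either fraction, as log2(FPKM + 1), with circles for GFP+ and squares for GFP- cells; an asterisk marks q under 0.05 and nt marks genes not tested. In 19 of these 20 the square lies to the right, the exception being stxbp5b at 1.07 against 0.583 FPKM.

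Over the whole neuronal group, 29 of 37 rows had a value above 0, and 28 of these were larger in GFP- cells. Among all genes of the table with a value, 11338 of 20810 were larger in GFP- cells. On the log2((FPKM + 1) ratio) scale, GFP+ over GFP- cells, the median was -1.60 over these 29 rows and -3.29 over the 7 tested members, against -0.07 and 0.05 over all genes with a value and all tested genes. Of those 7, 4 were called lower and none higher, and at an unadjusted p under 0.05 the counts in the authors' deposited table were also 4 and 0, where 11.8% of all tested genes were lower and 12.1% higher. All 7 were under 5 FPKM in GFP+ cells, so they were tested only because they were high in GFP- cells. A call in the other direction was hardly possible, and the counts and median over these 7 are a description only. Summed FPKM of the group was 15.5 in GFP+ and 224 in GFP- cells, so that the former was 6.91% of the latter. Neural markers moved with the group. Of 11 such genes, snap25a left out, 10 were tested, 6 were called lower and all 11 had the lower value in GFP+ cells. Their summed level was 139.9 against 837 FPKM, and none was listed at 0. Most of the GFP+ sum came from tubb5, at 110.6 against 132 FPKM (q = 0.788, the authors' deposited table). The neuronal RNA-binding gene elavl3 stood at 2.63% of its GFP- level. The part of neural cells in the difference was not tested, and in sorted bulk samples fewer cells of a type and less RNA per cell cannot be told apart.

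Many of these families come as pairs of copies, and in several 1 copy held most of the RNA. In GFP- cells snap25a made up 94.1% of the FPKM of its pair, cplx2l made up 88.9% of the cplx2l and cplx2 pair, and syt11a made up 72.9% of its pair. For syt1a the partner copy was listed at 0. Some pairs differed between the fractions. The gene sypa held 63.8% of the sypa and sypb pair in GFP- and 17.4% in GFP+ cells. The GFP+ share rests on 0.285 and 1.35 FPKM, and neither gene was tested. With stx11b.1 as partner, stx11a held 15.0% in GFP- and 95.9% in GFP+ cells. The GFP- share rests on 0.338 FPKM for stx11a and 1.92 FPKM for stx11b.1, and the GFP+ share on 14.4 and 0.614 FPKM. Of these, stx11a did not pass and stx11b.1 was not tested, and the further copy stx11b.2 was left out. With stxbp5b as partner, stxbp5a held 70.6% in GFP- and 38.7% in GFP+ cells, at low levels. The copies sypl2a and sypl2b were both tested and better measured. There sypl2a held 40.4% of the pair in GFP- and 60.7% in GFP+ cells. Close copies can share reads, so the division within a pair is uncertain.

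Synaptotagmins outside the neuronal group reached 1 FPKM in 3 of 11 rows, all larger in GFP- cells. The gene syt11a, whose protein is held not to bind calcium, had 0.492 FPKM in GFP+ and 12.9 FPKM in GFP- cells, and did not pass (q = 0.0837, the authors' deposited table). Its copy syt11b had 0.188 against 4.80 FPKM and syt12 had 0.147 against 2.58 FPKM, and neither was tested. The remaining 8 stayed under 1 FPKM in both fractions, and only syt14b and syt7b had the larger value in GFP+ cells.

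Among general fusion genes, vamp5 was the only one called. This gene (ENSDARG00000068262; chromosome 5, 29941799 to 29952025), known in mammals as myobrevin of muscle cells, had 152 FPKM in GFP+ and 22.1 FPKM in GFP- cells. It was 6.91-fold higher in GFP+ cells (q = 0.000958, the authors' deposited table). Its p was the smallest there, which 381 tested genes shared. Of all 84 members vamp5 had the largest GFP+ value, and 539 genes of the table had a larger one. Its locus also holds BX323557.1, which was listed at 0 in both fractions. The endosomal and granule SNARE gene vamp8 lies 17804 bases before vamp5 on the same chromosome, with 1 gene of the table, listed at 0, between them. It had 16.3 against 7.99 FPKM (q = 0.268, the authors' deposited table).

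The other general vamp and snap genes had ratios closer to 1. The recycling endosome gene vamp3 had 91.2 FPKM in GFP+ and 109 FPKM in GFP- cells, the largest GFP- value of all members (q = 0.783, the authors' deposited table). The Golgi gene vamp4 had 9.34 against 9.30 FPKM (q = 0.997, the authors' deposited table). The gene snap29, of endosomes and autophagosomes, had 8.91 against 7.22 FPKM (q = 0.851, the authors' deposited table). Its relative snap47 had 0.729 against 0.810 FPKM and was not tested.

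None of the tested surface syntaxins of the general group passed, though all of them had the larger value in GFP+ cells. The gene stx4, the widespread plasma membrane syntaxin, had 41.9 FPKM in GFP+ and 22.3 FPKM in GFP- cells (q = 0.152, the authors' deposited table). The gene stx3a, an apical syntaxin in epithelia, had 10.7 against 1.60 FPKM, a 6.70-fold ratio (q = 0.0599, the authors' deposited table). The gene stx11a, whose human counterpart acts in immune cells and platelets, had 14.4 against 0.338 FPKM. Its 42.5-fold ratio did not pass (q = 0.561, the authors' deposited table). The copies stx11b.1 and stx11b.2, at 0.614 against 1.92 FPKM and 0.135 against 0.144 FPKM, were not larger in GFP+ cells and were not tested. The untested syntaxin genes stx2a and stx2b had 2.56 against 2.39 FPKM and 6.09 against 2.60 FPKM. The erythroid and myeloid marker sums given above also lay higher in GFP+ cells, and their part in the levels of vamp5, stx11a or stxbp2 was not tested.

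The measured general syntaxin-binding genes and the disassembly genes had larger GFP+ values too, nsfa excepted, and none passed. The gene stxbp2, partner of syntaxin 11 in human blood cells, had 12.4 FPKM in GFP+ and 4.22 FPKM in GFP- cells (q = 0.0549, the authors' deposited table), just outside the threshold. The gene stxbp3, partner of syntaxin 4, had 21.7 against 10.6 FPKM (q = 0.111, the authors' deposited table). The alpha-SNAP gene napa had 49.9 against 22.6 FPKM, a 2.20-fold ratio (q = 0.0657, the authors' deposited table). The genes stxbp4 and stxbp6l were listed at 0 in both fractions. The ATPase gene nsfb had 6.16 against 4.46 FPKM and was not tested. The other ATPase gene, nsfa, went the other way in both of its rows, which lie in the same locus and whose reads cannot be told apart here. One row had 0.109 against 9.61 FPKM, an 88.5-fold ratio (q = 0.561, the authors' deposited table), and the untested row had 0.707 against 1.75 FPKM.

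Most syntaxins of internal membranes had similar values in both fractions, and none passed. The recycling endosome gene stx12 had 19.3 against 16.9 FPKM and the trans-Golgi gene stx16 had 10.3 against 7.75 FPKM. The Golgi gene stx5a had 7.15 against 6.61 FPKM and the autophagosome gene stx17 had 2.71 against 2.57 FPKM, both untested. Of the further copies, stx5al had 2.50 against 3.11 FPKM, stx12l 0.256 against 0.927 FPKM and stx7l 0.317 against 0.217 FPKM. The late endosome gene stx8 had 7.64 against 3.24 FPKM (q = 0.528, the authors' deposited table). The trans-Golgi and endosome gene stx6 was lower in GFP+ cells at 6.35 against 13.7 FPKM (q = 0.158, the authors' deposited table).

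**Figure D3:**
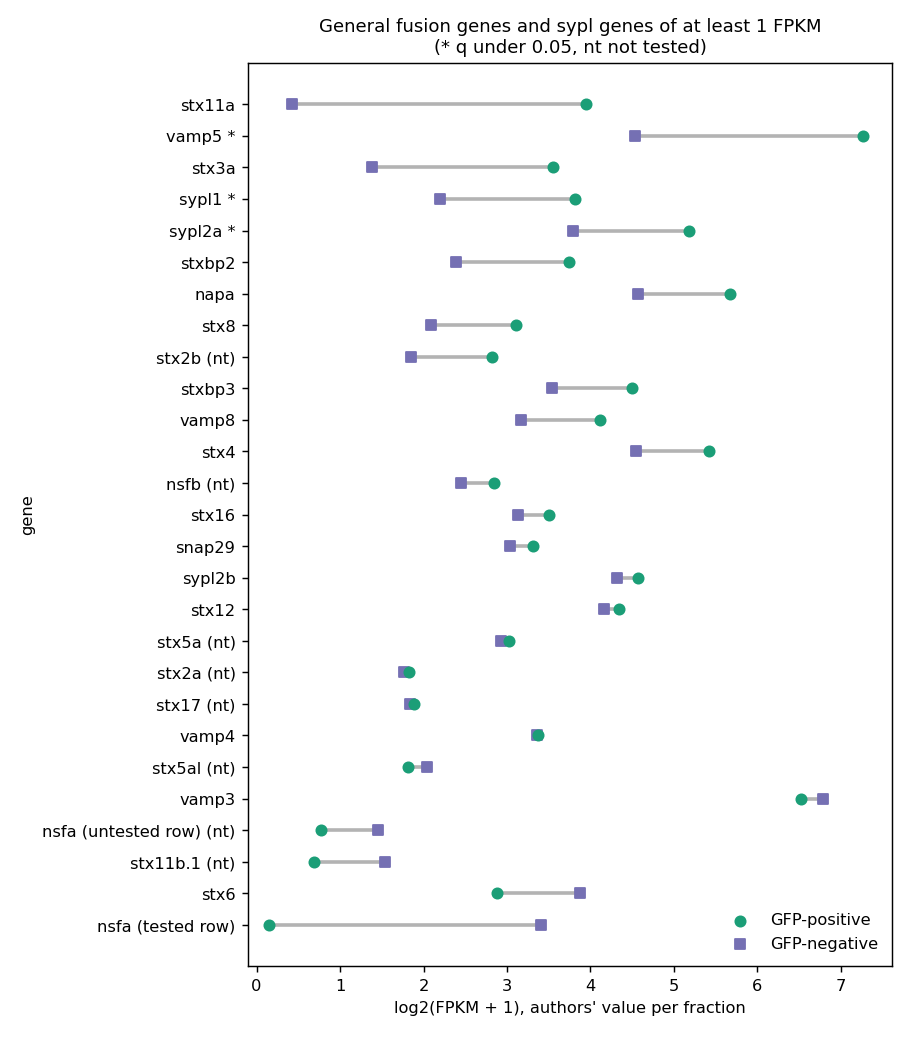
Levels of general fusion and sypl genes of at least 1 FPKM in either fraction, as log2(FPKM + 1), with circles for GFP+ and squares for GFP- cells; an asterisk marks q under 0.05 and nt marks genes not tested. Genes are ordered by ratio from stx11a to nsfa, 5 of the 16 tested general genes lie within 1.5-fold of equal, and vamp5 reaches 152 FPKM in GFP+ cells.

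Of the 30 general members, 28 had a value above 0. Of these, 19 were larger in GFP+ cells, as were 9472 of the 20810 genes with a value. Of 16 tested members, 13 were larger in GFP+ cells, against 3879 of all 7299 tested genes. Of the 16, 15 did not pass, 1 was called higher and none lower, against 7.18% higher and 7.15% lower over all tested genes. At an unadjusted p under 0.05 in the authors' deposited table, 6 of the 16 were higher and 1 was lower, against 12.1% and 11.8% of all tested genes. The median log2((FPKM + 1) ratio) was 0.91 over the tested members and 0.15 over all with a value. Some of the 16 were tested only because they were high in 1 fraction. Examples are stx11a, at 0.338 FPKM in GFP- cells, and the tested nsfa row, at 0.109 FPKM in GFP+ cells. Counts and the median over the 16 are thus a description only. Within 1.5-fold of equal were 5 of the 16, against 56.4% of all tested genes. Summed FPKM was 503 in GFP+ and 296 in GFP- cells, so that the former was 170% of the latter, against 120% over all genes. Of the general sums vamp5 alone held 152 and 22.1 FPKM. Of the sums over all genes, the 6 erythroid markers held 71187 FPKM in GFP+ and 854 FPKM in GFP- cells. The rule reads lower-case names, and it left out a general gene written in capitals, SNAP23 (1 of 2), the widespread relative of snap25a, chosen here after its values were seen. It had 68.0 against 18.3 FPKM, a 3.73-fold ratio (q = 0.0141, the authors' deposited table). It shares its locus with SNAP23 (2 of 2), which had 0.569 against 1.16 FPKM. In all, 14 rows in capitals would fit the rule, 2 of them tested, and 3 more fit by the reference of gene names alone. Among the latter is sybl1, the vamp7 gene of lysosome fusion, with 7.57 against 4.33 FPKM (q = 0.439, the authors' deposited table). Another of them, called STX18 by that reference, had 10.5 against 8.53 FPKM (q = 0.857, the authors' deposited table). The other tested row in capitals, NAPA (2 of 2), had 6.52 against 5.06 FPKM and did not pass (q = 0.825, the authors' deposited table). A neuronal gene in capitals, SNAP91 (1 of 2), had 0.136 against 7.51 FPKM and was not tested.

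The synaptophysin-like genes gave the other calls in this direction. The gene sypl2a (ENSDARG00000055307; chromosome 11, 37196137 to 37218067), whose mammalian counterpart lies in muscle triads, had 35.1 FPKM in GFP+ and 12.8 FPKM in GFP- cells. It was 2.73-fold higher in GFP+ cells (q = 0.00752, the authors' deposited table). Its copy sypl2b had 22.7 against 19.0 FPKM and did not pass (q = 0.811, the authors' deposited table). The gene sypl1 (ENSDARG00000077356; chromosome 4, 3260737 to 3275921), for the widespread vesicle protein pantophysin, had 13.1 against 3.59 FPKM, a 3.64-fold difference (q = 0.0254, the authors' deposited table). A second sypl1 row in the same locus and both nsfl1c rows were listed at 0 in both fractions.

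The make-up of the vamp and snap25 families by level differed between the fractions. Of the summed FPKM of the 6 VAMP genes, vamp5 made up 56.4% in GFP+ and 12.9% in GFP- cells, and vamp3 made up 33.7% and 64.0%. Of the snap25 family by the rule, snap29 made up 82.0% in GFP+ and 26.1% in GFP- cells, and snap25a made up 9.17% and 66.8%. With genes that the rule left out, added after their values were seen, sybl1 made up 2.72% and 2.48% of the VAMP sum. With SNAP23 counted in, the snap25 family was led by snap25a at 39.3% and SNAP23 (1 of 2) at 38.7% in GFP- cells, and by SNAP23 (1 of 2) at 85.6% in GFP+ cells. These shares carry no error, since each rests on 1 value per gene and fraction.

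**Figure D4:**
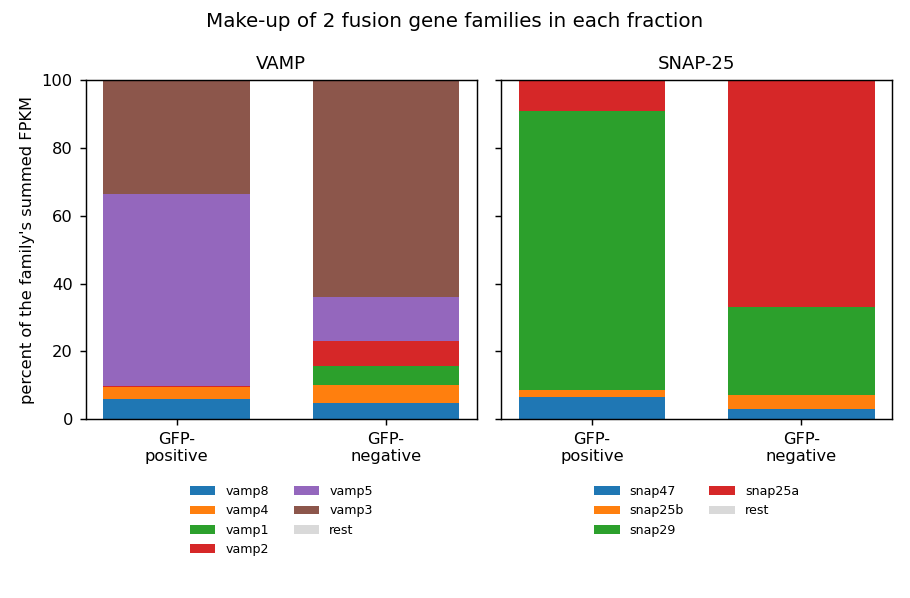
Share of each gene in the summed FPKM of 2 families by the rule, in percent, with 1 bar per fraction; genes under 3% in both fractions are grouped as rest. The bars for GFP+ cells are led by vamp5 and snap29, and those for GFP- cells by vamp3 and snap25a.

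Partner genes outside the rule were counted from 2 lists. Of 44 symbols of synaptic vesicle and active zone genes, 31 were in the table, 5 were tested, 1 was called lower and none higher (2 and 0 at an unadjusted p under 0.05, which 23.9% of all tested genes passed). Of the 30 with a value, 24 were larger in GFP- cells, against 11338 of all 20810 genes with a value. The gene called lower was rims2a, an active zone scaffold, with 0.618 against 9.97 FPKM (q = 0.0382, the authors' deposited table). The vesicular acetylcholine transporter gene slc18a3a had 0.205 against 14.0 FPKM (q = 0.561, the authors' deposited table). The remaining tested genes had smaller ratios and did not pass. They were dnajc5aa at 6.27 against 14.1 FPKM, dnajc5ab at 14.6 against 18.2 FPKM and erc1b, larger in GFP+ cells, at 9.28 against 6.02 FPKM. For this list the median log2((FPKM + 1) ratio) was -1.05 over tested genes, and summed FPKM was 51.5 in GFP+ and 130 in GFP- cells. Of 37 symbols of other SNAREs, Sec1 family proteins and tethers, 34 were in the table, 13 were tested and 0 were called by Cuffdiff in either direction, with 1 higher and 0 lower at an unadjusted p under 0.05, against the same 23.9% of all tested genes. All 34 had a value, and 24 of them were larger in GFP+ cells, against 9472 of all 20810 genes with a value. Their median log2((FPKM + 1) ratio) was 0.16 over tested genes, and their summed FPKM was 270.4 in GFP+ and 229 in GFP- cells. The exocyst gene exoc6 had the smallest q of them (0.0710, the authors' deposited table), at 25.7 against 9.93 FPKM.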

How the data were processed

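RNA-seq libraries from GFP+ and GFP- cells (2 each) were compared. TopHat2 2.0.9, Cuffdiff 2.1.1 and the Zv9 build were used per the submitters' processing notes; settings, annotation and strand handling are not given in the sources used here. Per the file headers, the authors' table gives 1 FPKM value per gene and fraction, a log2 ratio, a test statistic (a score), a p-value and a q-value, all as deposited. The deposited log2 ratio has GFP- cells in the numerator; it was inverted here. The deposited q-value equals a Benjamini-Hochberg adjustment over the tested genes within 5.26e-07. Of 31716 genes, 7299 were tested, 24304 had too few alignments and 113 were set aside as LOWDATA. Summed FPKM was 798915 in GFP+ and 664220 in GFP- cells; depth is unknown.

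Values of 0 can be failed estimates and are written as listed at 0, with no fold. Medians use log2((FPKM + 1) ratio), which understates low genes. Because 4 loci start at 0, 1 was added to starts. Of the members, 16 share a locus and 72 have an ID in the reference of gene names. Python 3.11.15 with pandas 2.3.3 was used. Of the code, only the Benjamini-Hochberg adjustment was tested on simulated p-values, and the grouping by name on genes of known group. Members, groups and lists were chosen with earlier results of these data known. Some members are not reported here by name, though the counts include them; other genes are named from the lists, or where said. Alternatives covered the threshold, low values, pseudocounts of 0.1 and 0.01, centring, shared loci and name matching.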

Additional observations from a re-analysis of the deposited data

How the results depend on the processing

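With the deposited q held under 0.01, 2 members were called lower, all of the neuronal group; vamp2 was among them, while cplx2l no longer passed. With members alone in their locus, or with matches by name only left out (an alternative chosen after seeing the data), 1 member was called higher. In the first case it was sypl2a, and 0 general genes were called higher; in the second it was vamp5. Matched without regard to case, without or with the reference names (the version with them chosen after seeing the data), 2 general genes were called higher, SNAP23 (1 of 2) being added. The other counts stayed within 1.5 times. Minimum levels of 1 and 5 FPKM, q adjusted again above 1 FPKM, and leaving out genes at 0 could not change any count. Nor could they change a median over tested members. In the higher fraction every tested gene had at least 4.71 FPKM and every tested member at least 7.64 FPKM, and no tested member was listed at 0. The neuronal median log2 ratio of -3.29 was -4.31 with a pseudocount of 0.1, -4.47 with 0.01 and -1.60 over all members with a value above 0; the general median of 0.91 was 0.15 over all with a value. The remaining medians moved by at most 0.1. Of 54 single ratios, only that of vamp4 changed sign, to -0.0060 with ratios centred on the median. That count says little about stability. A pseudocount cannot turn the sign of a ratio, and the median subtracted in centring was only 0.0113. No paired analysis was possible because the table gives 1 value per gene and fraction; for the same reason no library could be left out.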

Other observations

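Large ratios often went without a call. Of 357 tested genes over 16-fold apart and above 0 in both fractions, 140 were called and 217 were not in the authors' deposited table. Of the latter, 101 had a p between 0.2 and 0.3, with a median lower value of 0.338 FPKM and a median higher value of 17.4 FPKM, against 2.14 and 67.2 FPKM for the called genes. Of 9 such members, 3 were called, cplx2l among them. The members vamp1, syt1a, stx11a and the tested nsfa row, 4 in all, had p from 0.226 to 0.250 in the authors' deposited table. Their cause was not tested.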
